A study of Saccharomyces cerevisiae with 36 samples.

Results

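The genes described here are 10 members of the cell wall integrity pathway and its wall proteins in budding yeast, given as a list of names that was drawn up with earlier results of these data known. They are *SLT2* (YHR030C), *KDX1* (YKL161C), *RLM1* (YPL089C), *FKS2* (YGR032W), *PIR1* (YKL164C), *PIR3* (YKL163W), *HSP150* (YJL159W), *CIS3* (YJL158C), *CWP1* (YKL096W) and *SED1* (YDR077W). All 10 were among the 6403 genes of the read count table and the 6172 of the authors' normalised table, and all 10 were among the 6038 genes with enough reads to be tested. The study asked whether an earlier heat shock changes the RNA response to a later one, in wild type (WT) cells and in cells without *MIP6*. WT was BY4741, a haploid laboratory strain (MATa his3Δ1 leu2Δ0 met15Δ0 ura3Δ0), and *mip6Δ* was the same background with the gene replaced by a KANMX4 cassette, so all groups share the auxotrophic markers and only *mip6Δ* carries the cassette. All cells grew to exponential phase in YPD. Memory cells were shocked at 39°C for 20 min, by adding medium at 51°C. They recovered for 60 min at 30°C before the shock that was sampled. No-memory cells were given medium at 30°C instead and stayed at 30°C until that shock. Polyadenylated RNA was sequenced at 0, 15 and 20 min of the shock, giving 12 groups of 3 replicates and 36 samples.

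The cell wall integrity pathway runs from sensors in the plasma membrane through the GTPase Rho1 and the protein kinase Pkc1 to a mitogen-activated protein kinase cascade that ends in Slt2. Active Slt2 phosphorylates Rlm1, a transcription factor of the MADS-box family that binds upstream of many wall genes, and heat shock is among the classic stimuli of the pathway. The wall itself is a mesh of glucan and chitin to which mannoproteins are attached, either directly (the PIR proteins, named for their internal repeats) or through a remnant of a GPI anchor (Cwp1 and Sed1).

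Between 28270651 and 42233578 reads were counted per sample. *MIP6* had 0 reads in all 18 *mip6Δ* samples and 134 to 626 in the WT samples, which goes with the strain labels. The a-cell genes *MFA1*, *MFA2*, *STE2* and *BAR1* had between 11.8 and 897 counts per 1000000 reads (CPM), against 0 to 1.06 for the alpha-cell genes *MF(ALPHA)1* and *MF(ALPHA)2* and at most 17.97 for *STE3*. *HIS3* kept 722 to 2994 reads per sample; his3Δ1 removes only part of that gene. One sample, replicate 2 of *mip6Δ* memory at 0 min, carries 20 min in another label field. It had 82.7 CPM of *SLT2*, between the 77.5 and 86.9 of the other 0-min replicates. This was below the 219 to 328 at 15 min and the 219 to 315 at 20 min. For *RLM1*, *KDX1*, *HSP150* and *CIS3* it lay outside the other 0-min replicates, on the side away from the heated samples. It was kept at 0 min, and it was also left out as an alternative. The study calls its replicates biological, and the labels do not say whether each of the 3 in a group came from a culture of its own, so p-values measure the spread between these samples.

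In the R64 assembly, the same as sacCer3, no annotated gene overlaps any of the 10. *PIR1* (chrXI:141794-142819, minus strand) and *PIR3* (chrXI:144401-145378, plus strand) are transcribed away from each other from a shared region of 1581 bp. *KDX1* (chrXI:149386-150687, minus strand) lies 4007 bp beyond *PIR3*. *HSP150* (chrX:120449-121690, plus strand) and *CIS3* (chrX:122265-122948, minus strand) are transcribed towards each other across a gap of 574 bp. *CWP1* is at chrXI:261132-261851 on the plus strand, *SED1* at chrIV:600793-601809 on the plus strand, *FKS2* at chrVII:548264-553951 on the plus strand, *SLT2* at chrVIII:168890-170344 on the minus strand and *RLM1* at chrXVI:379120-381150 on the minus strand. The 10 genes include relatives, none of them near-identical over its length. *FKS2* matched *FKS1* at 81.6% of bases over 5231 bp, *CIS3* matched *HSP150* at 82.4% over 301 bp, *PIR1* matched *PIR3* at 72.2% over 1051 bp, and *SLT2* matched *KDX1* at 67.5% over 790 bp. How reads that map to more than 1 place were counted is not given in the sources used here.

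Rlm1 binds DNA through a core of the form CTANNNNTAG, with A or T usually in the middle, so the 600 bases before each start codon were searched for it. The core was present before 6 of the 10 genes, against 10.8% of the 6018 windows of that length in the genome. The matches are shown with 10 bases on each side, because they are the letters that these members share with the known site of the pathway's own transcription factor. Each is written 5′ to 3′ on the strand of its gene, from R64, with the core in capitals:
RLM1, chrXVI:381439-381468: gagatgaaagCTAATAATAGaaacagctcg
FKS2, chrVII:547918-547947: aactggtgtgCTAAGAATAGagtttcataa
PIR3, chrXI:144111-144140: gattagcaaaCTAATTATAGatcaaaggcc
HSP150 upstream, chrX:120216-120245: acattttgagCTAAATTTAGattttggtca
HSP150 downstream, chrX:120411-120440: tattccttttCTAACCCTAGtacaataata
CWP1, chrXI:260736-260765: tacgtcataaCTAAAAATAGcgttagccac
SED1, chrIV:600303-600332: gcatatatcgCTAAAATTAGccatcagaac

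The core began 308 bases before the start codon in *RLM1*, 336 in *FKS2*, 280 in *PIR3*, 223 and 28 in *HSP150*, 386 in *CWP1* and 480 in *SED1*. In 5 of the 7 matches all 4 middle bases were A or T. A core of that stricter form, which was looked for after the matches had been seen, stood before 5 of the 10 genes and in 2.06% of the genome's windows. In the shorter window of 300 bases the core stood before 2 of the 10 genes, *PIR3* and *HSP150*, against 5.62% of 6020 windows. Of the PIR genes, *PIR3* and *HSP150* had the core and *PIR1* and *CIS3* did not. The element AGGGG, the form bound by the general stress factors Msn2 and Msn4, stood in either orientation within 600 bases of 6 of the 10 genes, against 39.6% of windows. A pair of heat shock factor half-sites, GAANNTTC or TTCNNGAA, stood before 3 of the 10, against 41.1%. None of the matches shares bases with a match of another of these motifs in the same window. These are matches of letters only. The members were chosen by name as genes of this pathway and its wall proteins, so the shares set against the genome's windows are not a test.

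**Figure D1:**
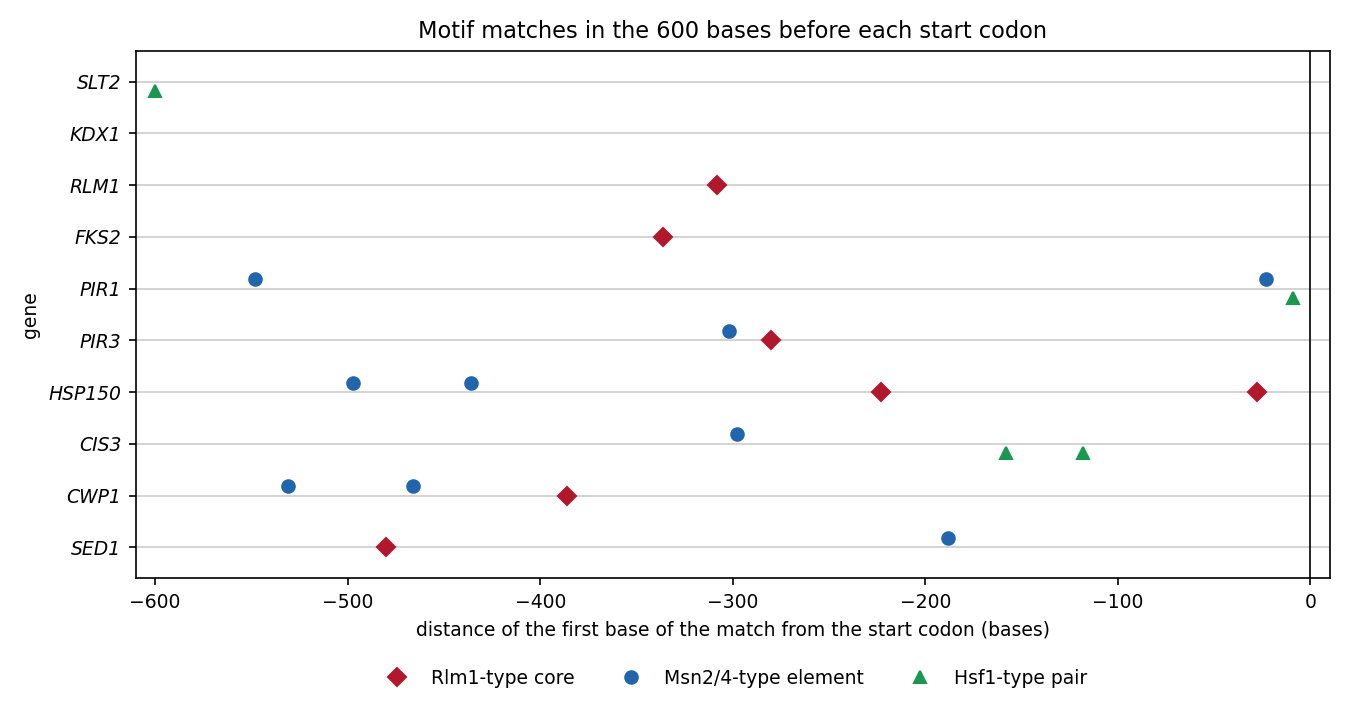
Matches of 3 motifs in the 600 bases before the start codon of each gene, with the distance of the first base of the match on the x axis in bases. Red diamonds are the Rlm1-type core, blue circles AGGGG and green triangles the pair of heat shock factor half-sites; cores stand before 6 of the 10 genes.

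Before heat, 5 of the 6 wall protein genes were far more abundant than the signalling genes, while *PIR3* was as low as these. Per kilobase of coding sequence, the levels in WT no-memory cells at 0 min were 3084 ± 536 (SD, n = 3) CPM for *SED1*, 1475 ± 26.5 for *HSP150*, 1440 ± 172 for *CIS3*, 1097 ± 7.63 for *PIR1* and 514 ± 157 for *CWP1*. The levels of *HSP150* and *CIS3* did not differ beyond their spread. The other 5 genes were lower on the same scale, with 54.2 ± 3.90 for *SLT2*, 22.7 ± 3.28 for *RLM1*, 19.6 ± 1.87 for *FKS2*, 14.6 ± 3.32 for *PIR3* and 12.8 ± 1.55 for *KDX1*. From *RLM1* down, each gene overlapped with the next one in this order. The 10 genes together took 0.683 ± 0.0643% of all reads in WT no-memory cells at 0 min and 1.92 ± 0.195% at 20 min. In WT memory cells the same shares were 0.716 ± 0.0556% and 1.53 ± 0.0802%. In *mip6Δ* they were 0.588 ± 0.0486% and 1.74 ± 0.129% without memory, and 0.646 ± 0.0719% and 1.41 ± 0.173% with memory. Fewer cells that express a gene and less RNA per cell cannot be told apart in such bulk samples.

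**Figure D2:**
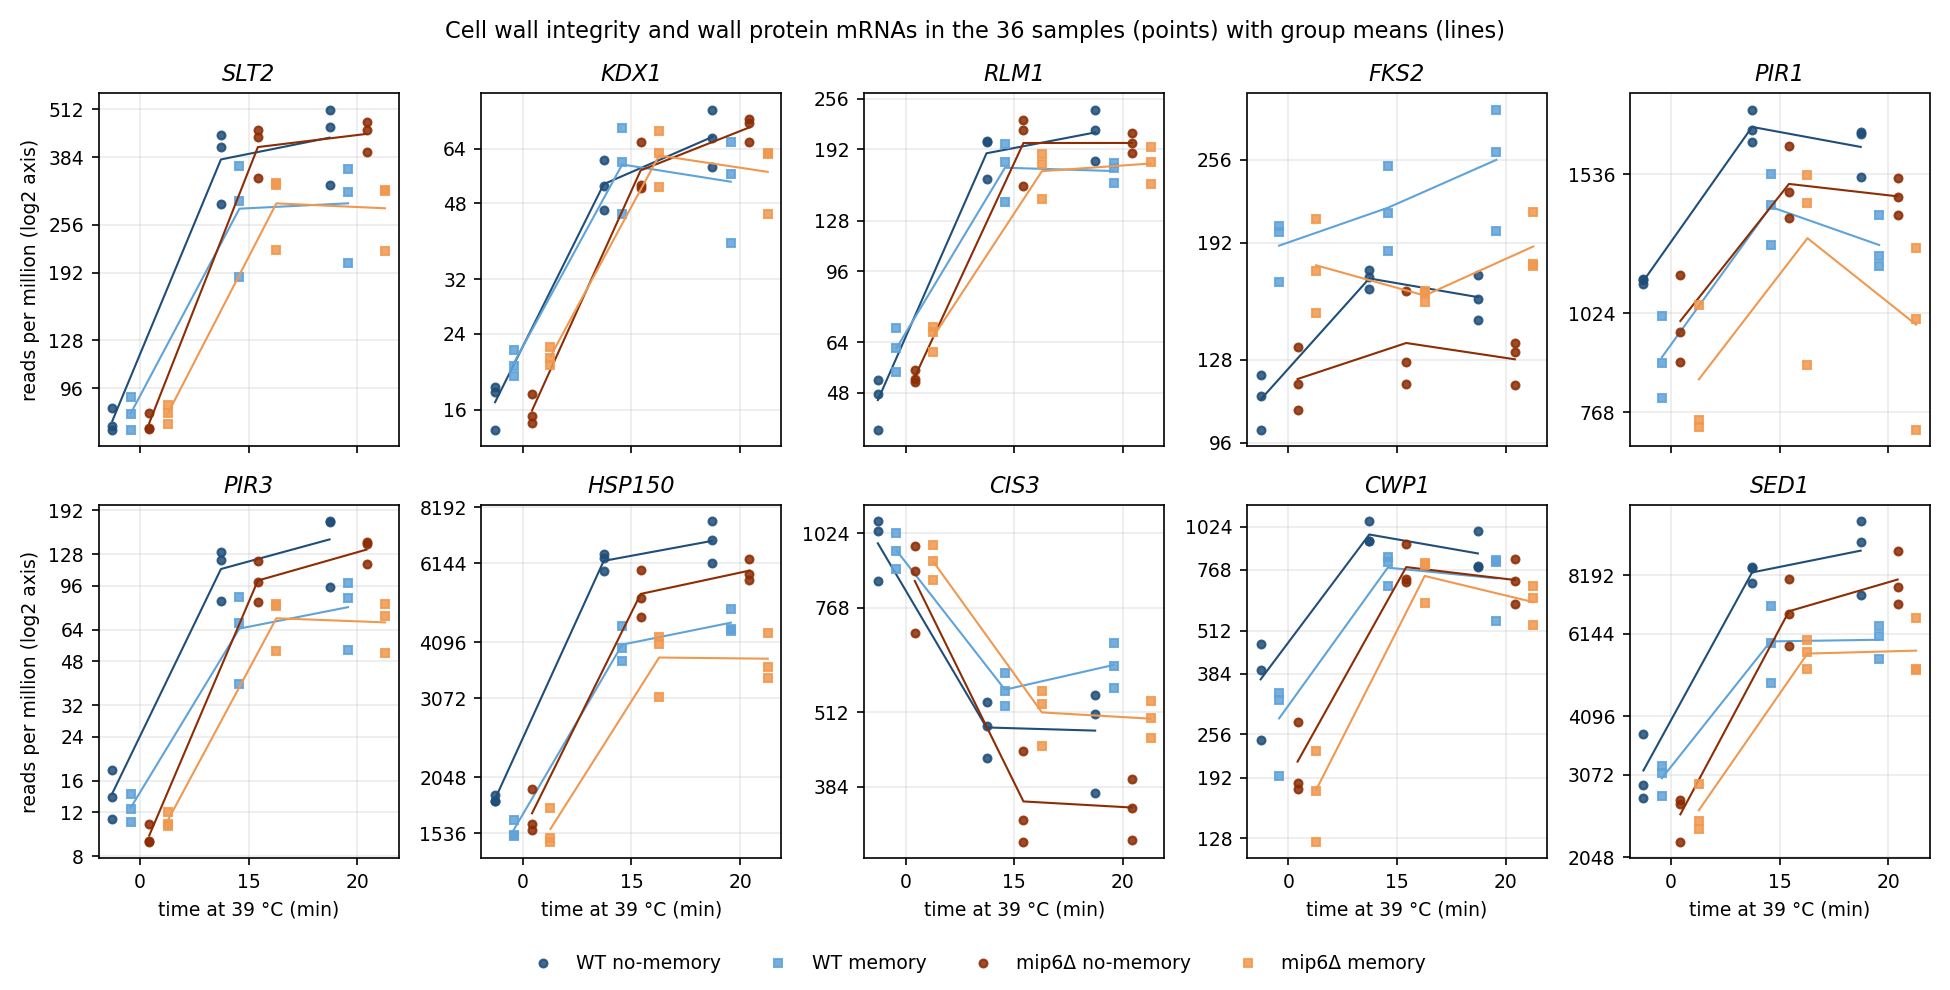
CPM (log2 axis) of each gene in all 36 samples against time at 39°C, with WT in blue, *mip6Δ* in brown and orange, no-memory as circles, memory as squares and lines through the group means. *CIS3* is the gene whose level is lower in all heated samples than in all samples at 0 min, and *FKS2* in memory samples starts at 150 to 208 CPM, above the 100.2 to 134 of the no-memory samples.

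*SLT2*, which encodes the terminal kinase of the cascade, rose about 5-fold. In WT no-memory cells it had 74.7, 85.3 and 76.6 CPM at 0 min, 289, 439 and 407 at 15 min and 325, 510 and 459 at 20 min. In WT memory cells it had 74.5, 91.1 and 82.0 at 0 min, 186, 363 and 295 at 15 min and 204, 358 and 310 at 20 min. Every heated sample lay above every sample at 0 min, and replicate 1 was the lowest of its group at both heated times. The rise at 20 min was 5.47-fold without memory (log2 2.45 ± 0.23 SE, adjusted p = 1.83e-10 by edgeR's quasi-likelihood test) and 3.52-fold with memory (log2 1.82 ± 0.22, adjusted p = 6.22e-08). *KDX1*, the catalytically degenerate paralogue of *SLT2*, started lower. It had 17.6, 18.1 and 14.3 CPM in WT no-memory cells at 0 min and 58.0, 78.9 and 67.7 at 20 min, a rise of 4.09-fold. With memory it went from 19.2, 20.2 and 22.0 to 38.8, 66.4 and 56.1, a rise of 2.63-fold. The heated and unheated samples did not overlap in either condition.

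*RLM1*, the transcription factor that the cascade activates, rose as well. In WT no-memory cells its levels were 38.7, 51.8 and 47.6 CPM at 0 min, 162, 201 and 200 at 15 min and 179, 214 and 241 at 20 min. With memory they were 54.0, 62.1 and 69.3 at 0 min, 142, 198 and 179 at 15 min and 159, 173 and 178 at 20 min. All memory samples at 0 min were above all no-memory samples, while at 20 min all were below. The rise at 20 min was 4.59-fold without memory (log2 2.20 ± 0.15, adjusted p = 4.31e-13) and 2.75-fold with memory (log2 1.46 ± 0.14, adjusted p = 1.38e-09). In *mip6Δ* the rise at 20 min was 3.79-fold without memory and 2.68-fold with memory.

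*FKS2*, a catalytic subunit of beta-glucan synthase that replaces Fks1 under stress, stood apart from the others. In WT no-memory cells it had 100.2, 121 and 113 CPM at 0 min, 171, 175 and 164 at 15 min and 172, 147 and 158 at 20 min. With memory it already had 167, 199 and 204 at 0 min, followed by 251, 187 and 213 at 15 min and 305, 199.97 and 263 at 20 min. Its level before the second shock was thus in or above the range of 147 to 175 that no-memory cells reached during heat. In *mip6Δ* it had 108, 134 and 118 without memory and 150, 174 and 208 with memory at 0 min. The heat response passed the test in WT no-memory cells at both times (log2 0.61 ± 0.14 and 0.51 ± 0.14) and in WT memory cells at 20 min (0.43 ± 0.14, adjusted p = 0.0094). The call at 20 min with memory was lost without replicate 1 (log2 0.20, adjusted p = 0.214) and without replicate 3 (0.49, adjusted p = 0.0626). It did not pass in WT memory cells at 15 min (0.19 ± 0.14) or in any of the 4 comparisons in *mip6Δ*, where the values ran from −0.15 to 0.18. The difference in this response between the strains, as the mean of 15 and 20 min, did not pass either (−0.42 ± 0.17 without memory, adjusted p = 0.788, and −0.34 ± 0.17 with memory, adjusted p = 0.941). *FKS1*, the paralogue used in normal growth, fell in WT no-memory cells at 15 min (log2 −0.70 ± 0.20).

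The 4 PIR genes among the members, whose products share a repeat domain and are linked directly to glucan, moved in unlike ways. *PIR3* was the lowest at 0 min, with 17.7, 11.3 and 13.8 CPM in WT no-memory cells, and reached 94.9, 173 and 172 at 20 min. That was 10.3-fold (log2 3.36 ± 0.29, adjusted p = 4.19e-11) and the change ranked 70 among the 6038 genes tested. With memory it went from 14.2, 10.9 and 12.4 to 53.0, 98.0 and 85.5 in WT, a rise of 6.29-fold. Replicate 1 was the lowest heated sample in both conditions. *PIR1*, on the other side of the shared 1581-bp region, had 1131, 1117 and 1130 CPM in WT no-memory cells at 0 min and 1526, 1740 and 1726 at 20 min. Its rise was 1.48-fold (log2 0.56 ± 0.17), and the 95% intervals of *PIR1* (0.22 to 0.90) and *PIR3* (2.80 to 3.93) did not overlap. The rise of *PIR1* no longer passed without replicate 2 (log2 0.52, adjusted p = 0.0787) or without replicate 3 (0.54, adjusted p = 0.0516). Its calls in WT memory cells at 20 min, *mip6Δ* no-memory cells at both times and *mip6Δ* memory cells at 15 min were each lost without replicate 2 or replicate 3 as well, with log2 0.44 to 0.52 and adjusted p from 0.0593 to 0.141.

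*HSP150*, a heat-inducible secreted PIR protein also called Pir2, had the highest PIR level under heat. In WT no-memory cells it had 1870, 1813 and 1814 CPM at 0 min, 5903, 6434 and 6306 at 15 min and 6140, 6915 and 7606 at 20 min. In WT memory cells it had 1518, 1520 and 1647 at 0 min, 3711, 4451 and 3970 at 15 min and 4391, 4846 and 4342 at 20 min. At each of the 3 times all memory samples lay below all no-memory samples, although the difference at 0 min did not pass the test. *CIS3*, which encodes the Pir4 protein, fell. In WT no-memory cells it had 1032, 851 and 1072 CPM at 0 min, 533, 430 and 486 at 15 min and 547, 374 and 509 at 20 min, a fall to a level 2.07-fold lower (log2 −1.05 ± 0.15, adjusted p = 3.55e-07). Memory cells of the WT had 957, 892 and 1027 at 0 min and 670, 561 and 613 at 20 min, 1.56-fold lower than at 0 min. No heated sample reached any sample at 0 min, in either strain or condition.

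Among the members, the mRNAs of the GPI-anchored wall proteins Sed1 and Cwp1 rose in both strains. *SED1*, an abundant structural protein of the stressed wall, had 2738, 2913 and 3757 CPM in WT no-memory cells at 0 min and 7435, 9620 and 10663 at 20 min, a rise of 2.95-fold. With memory it went from 3099, 2760 and 3199 to 5422, 6387 and 6079 in WT, a rise of 1.98-fold. *CWP1*, a mannoprotein of the wall around the birth scar, varied more at 0 min. It had 394, 247 and 469 CPM in WT no-memory cells at 0 min and 929, 929 and 1062 at 15 min, and in WT memory cells 323, 194 and 338 followed by 689, 839 and 812. In *mip6Δ* no-memory cells it had 178, 185 and 278 at 0 min and 711, 724 and 914 at 15 min. Its rise at 15 min was 2.63-fold in WT and 3.67-fold in *mip6Δ* without memory, and 2.74-fold and 4.18-fold with memory. The difference between the strains was tested on the mean of the responses at 15 and 20 min and did not pass (log2 0.51 ± 0.29 without memory, adjusted p = 0.788, and 0.54 ± 0.29 with memory, adjusted p = 0.941).

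Across the 8 comparisons of heated with unheated cells, 7 to 9 of the 10 genes rose and 1, *CIS3*, fell. In WT no-memory cells 9 rose at 15 min, where 35.9% of all genes tested rose and 36% fell, and 9 rose at 20 min, where 34.7% rose and 34% fell. In WT memory cells 8 rose at 15 min (31.7% of all genes rose, 32.6% fell) and 9 at 20 min (29.1% and 29.8%). In *mip6Δ* no-memory cells 8 rose at 15 min (37% and 37.5%) and 8 at 20 min (36.5% and 36.2%). In *mip6Δ* memory cells 8 rose at 15 min (33.3% and 35%) and 7 at 20 min (32.3% and 32.5%). By library totals the genes called in WT memory cells at 20 min were 2189 higher and 1345 lower, against 1758 and 1802, and those in *mip6Δ* memory cells 2446 and 1658 at 15 min (against 2010 and 2116) and 2617 and 1363 at 20 min (against 1948 and 1963). With upper-quartile scaling *mip6Δ* no-memory cells had 2720 and 1802 at 15 min (against 2233 and 2262) and 2747 and 1730 at 20 min (against 2204 and 2188). The exceptions among the members were *FKS2* in 5 comparisons and *PIR1* in *mip6Δ* memory cells at 20 min (log2 0.23 ± 0.17). The median log2 change of the 10 genes was 1.54 at 15 min and 1.73 at 20 min in WT no-memory cells, against 0.01 and 0.02 over all genes. The groups of 3 did not overlap for 10 of 10 genes in either WT no-memory comparison, for 9 in each WT memory and *mip6Δ* no-memory comparison and for 8 in each *mip6Δ* memory comparison. Over all genes tested the groups did not overlap for 74.5% and 72.4% at 15 and 20 min in WT no-memory cells, 69.3% and 64.5% in WT memory cells, 70.9% and 70.4% in *mip6Δ* no-memory cells and 70.8% and 70.4% in *mip6Δ* memory cells, so these counts lie little above the background.

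**Figure D3:**
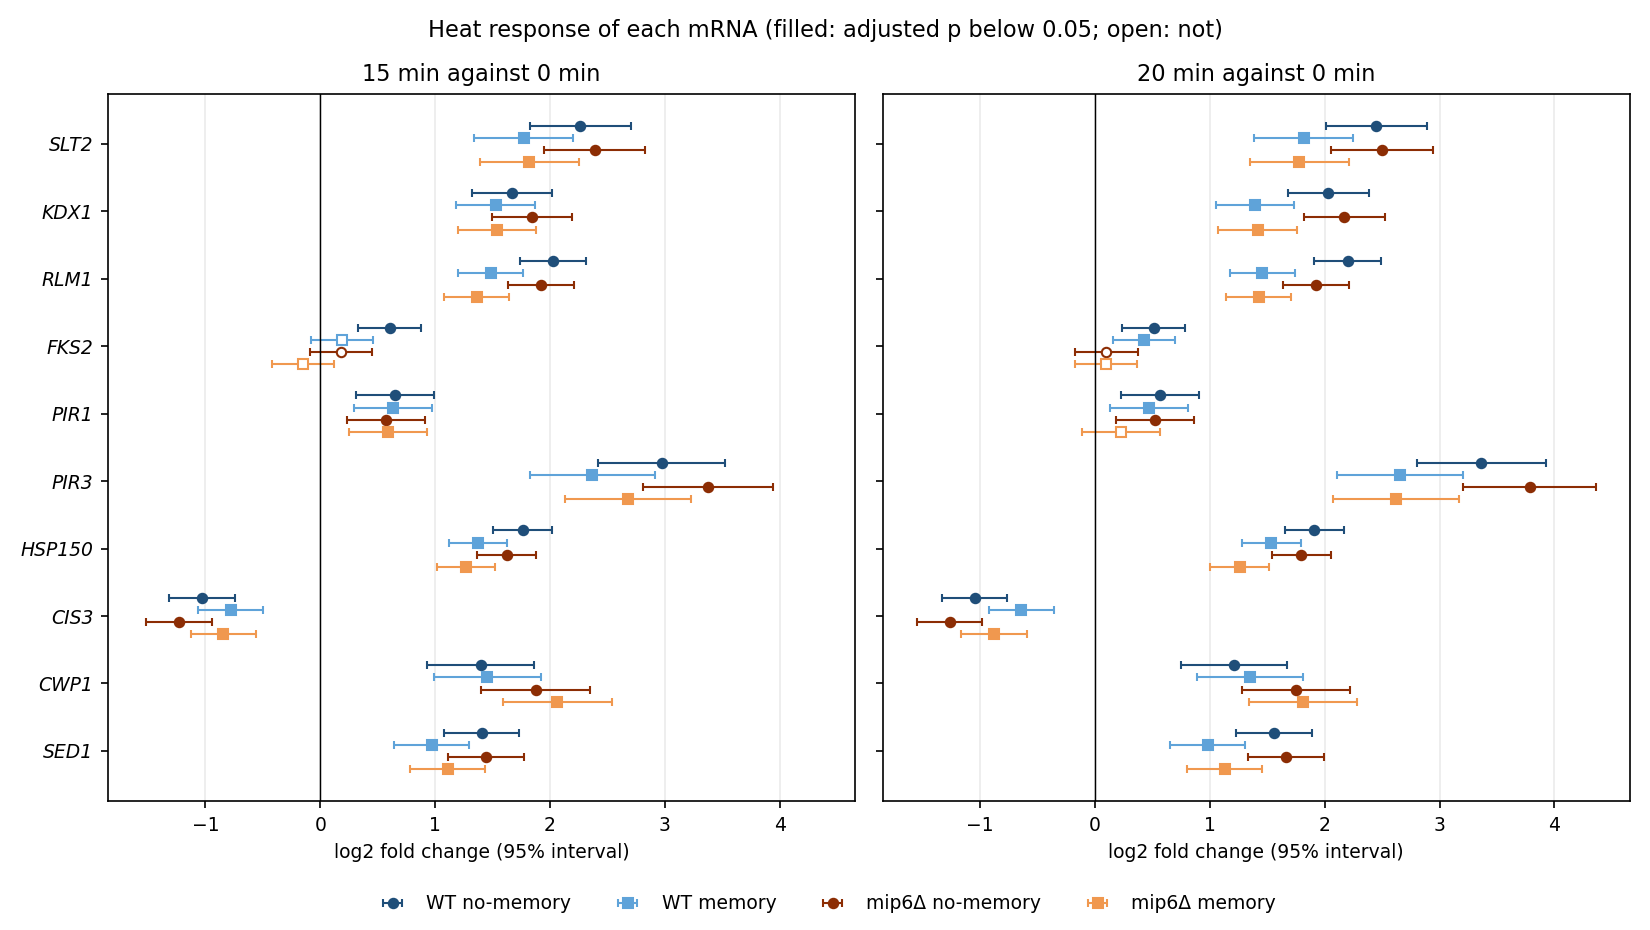
Log2 fold change of each gene at 15 min (left) and 20 min (right) against 0 min in the 4 combinations of strain and memory, with 95% intervals; filled symbols have an adjusted p below 0.05. Squares (memory) lie nearer to 0 than circles (no-memory) for *SLT2*, *KDX1*, *RLM1*, *FKS2*, *PIR3*, *HSP150*, *CIS3* and *SED1*. For *FKS2* 5 of 8 symbols are open, and square and circle almost coincide in *mip6Δ* at 20 min.

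Between 15 and 20 min 0 of the 10 genes passed edgeR's test in any combination of strain and memory. At an unadjusted p under 0.05 there was 1 gene in WT no-memory cells (*KDX1*, log2 0.36), 1 in *mip6Δ* memory cells (*PIR1*, log2 −0.36) and 0 in the others. Of all genes, 18.4% and 13.1% reached that level in WT without and with memory, and 9.36% and 12.7% in *mip6Δ*. DESeq2 and limma on the authors' normalised counts also called 0 of the 10. Of all genes tested, 1.36% and 0.132% passed in WT without and with memory, and 0.199% and 0.182% in *mip6Δ*. The changes of the 10 genes in this interval ran from −0.36 to 0.41 on the log2 scale.

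The first shock left *FKS2* higher after the 60-min recovery. At 0 min it was 1.71-fold higher with memory in WT (log2 0.77 ± 0.14, adjusted p = 0.000526) and 1.48-fold higher in *mip6Δ* (0.57 ± 0.14, adjusted p = 0.00583), and all 3 memory samples were above all 3 no-memory samples in each strain. In WT this difference ranked 110 among 6038 genes. *RLM1* was also higher in WT (log2 0.42 ± 0.14, adjusted p = 0.0417), with 0.33 ± 0.14 in *mip6Δ* (adjusted p = 0.117). So 2 of the 10 genes were higher in WT, where 5.43% of all genes were higher and 9.92% lower, and 1 of 10 in *mip6Δ*, where 5.23% were higher and 10.1% lower. The other 8 genes passed in neither strain, with log2 differences from −0.38 (*CWP1* in WT) to 0.41 (*KDX1* in *mip6Δ*). Among them *PIR1* had −0.32 in WT and −0.25 in *mip6Δ*, and *SLT2*, *CIS3* and *SED1* lay between −0.05 and 0.11. With the replicate number as a block, 3 genes were called in *mip6Δ*, *KDX1* (log2 0.41, adjusted p = 0.0396) and *RLM1* (0.33, adjusted p = 0.0144) beside *FKS2*. Without replicate 3, 0 of the 10 genes were called in either strain, and *FKS2* had log2 0.71 in WT and 0.41 in *mip6Δ*. Without replicate 2 *FKS2* was the gene left in WT, and without replicate 1 there were 3 in *mip6Δ*. The scaling of libraries bears on this comparison: the normalisation factors ran from 0.864 to 1.03 in no-memory and from 0.984 to 1.16 in memory samples. By library totals alone 1644 genes were higher and 241 lower in WT, against 328 and 599, and 1165 and 292 in *mip6Δ*, against 316 and 612, and *FKS2* had log2 0.96 and 0.73. Upper-quartile scaling gave 464 and 465 in *mip6Δ*.

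During the shock 1 to 5 of the 10 genes were lower and 1 or 2 higher in memory cells, depending on strain and time. At 15 min in WT, *PIR3* was 1.73-fold lower (log2 −0.79 ± 0.26, adjusted p = 0.0155), *HSP150* 1.54-fold lower (−0.62 ± 0.13, adjusted p = 0.00032) and *SED1* 1.41-fold lower (−0.49 ± 0.17, adjusted p = 0.0185), while *FKS2* was higher (0.35 ± 0.14, adjusted p = 0.0418). That call for *FKS2* held in 6 of 12 alternatives, with log2 0.24 (adjusted p = 0.182) without replicate 1 and 0.33 (adjusted p = 0.259) without replicate 3. In WT at 15 min 3 genes were thus lower and 1 higher, where 19.8% of all genes were lower and 21.7% higher. At 20 min *SLT2* joined the lower ones (log2 −0.57 ± 0.21) and *CIS3* the higher ones (0.37 ± 0.14), giving 4 lower and 2 higher against 22.5% and 21.8% of all genes. In *mip6Δ* at 15 min *HSP150* was lower (log2 −0.47 ± 0.13) and *CIS3* higher (0.50 ± 0.14), against 17.9% of all genes lower and 21.3% higher. At 20 min 5 were lower, *PIR3* (log2 −0.96 ± 0.26), *HSP150* (−0.65 ± 0.13), *SLT2* (−0.64 ± 0.21), *PIR1* (−0.54 ± 0.17) and *SED1* (−0.50 ± 0.17), and 2 were higher, *FKS2* (0.56 ± 0.14) and *CIS3* (0.50 ± 0.14). There 22.3% of all genes were lower and 23% higher. By library totals the called genes split otherwise, 2797 higher and 401 lower in WT at 15 min (against 1310 and 1194), 2413 and 616 at 20 min (against 1317 and 1359), 2547 and 374 in *mip6Δ* at 15 min (against 1288 and 1080) and 2436 and 618 at 20 min (against 1387 and 1349). Under that scaling the members called were 1 lower and 3 higher in WT at 15 min (*KDX1*, at 0.40, and *CIS3*, at 0.46, joined *FKS2*), 3 and 2 in WT at 20 min, 0 and 2 in *mip6Δ* at 15 min and 2 and 2 in *mip6Δ* at 20 min. The calls lost were *PIR3* (−0.54) and *SED1* (−0.24) in WT at 15 min, *SLT2* (−0.36) in WT at 20 min, *HSP150* (−0.25) in *mip6Δ* at 15 min, and *SLT2* (−0.44), *PIR1* (−0.34) and *SED1* (−0.30) in *mip6Δ* at 20 min. Upper-quartile scaling gave 1132 and 1692 in *mip6Δ* at 20 min. With the replicate block, *SLT2* was also lower at 15 min in WT (adjusted p = 0.00433) and *mip6Δ* (adjusted p = 0.00176), and 6 genes were called in WT at 15 min and 9 at 20 min, with 3 and 8 in *mip6Δ*. Without replicate 3 the 4 comparisons, WT at 15 and 20 min and then *mip6Δ*, called 1, 1, 1 and 2 genes, and without replicate 2 they called 4, 3, 1 and 5. Without replicate 1 they called 3, 8, 5 and 7.

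**Figure D4:**
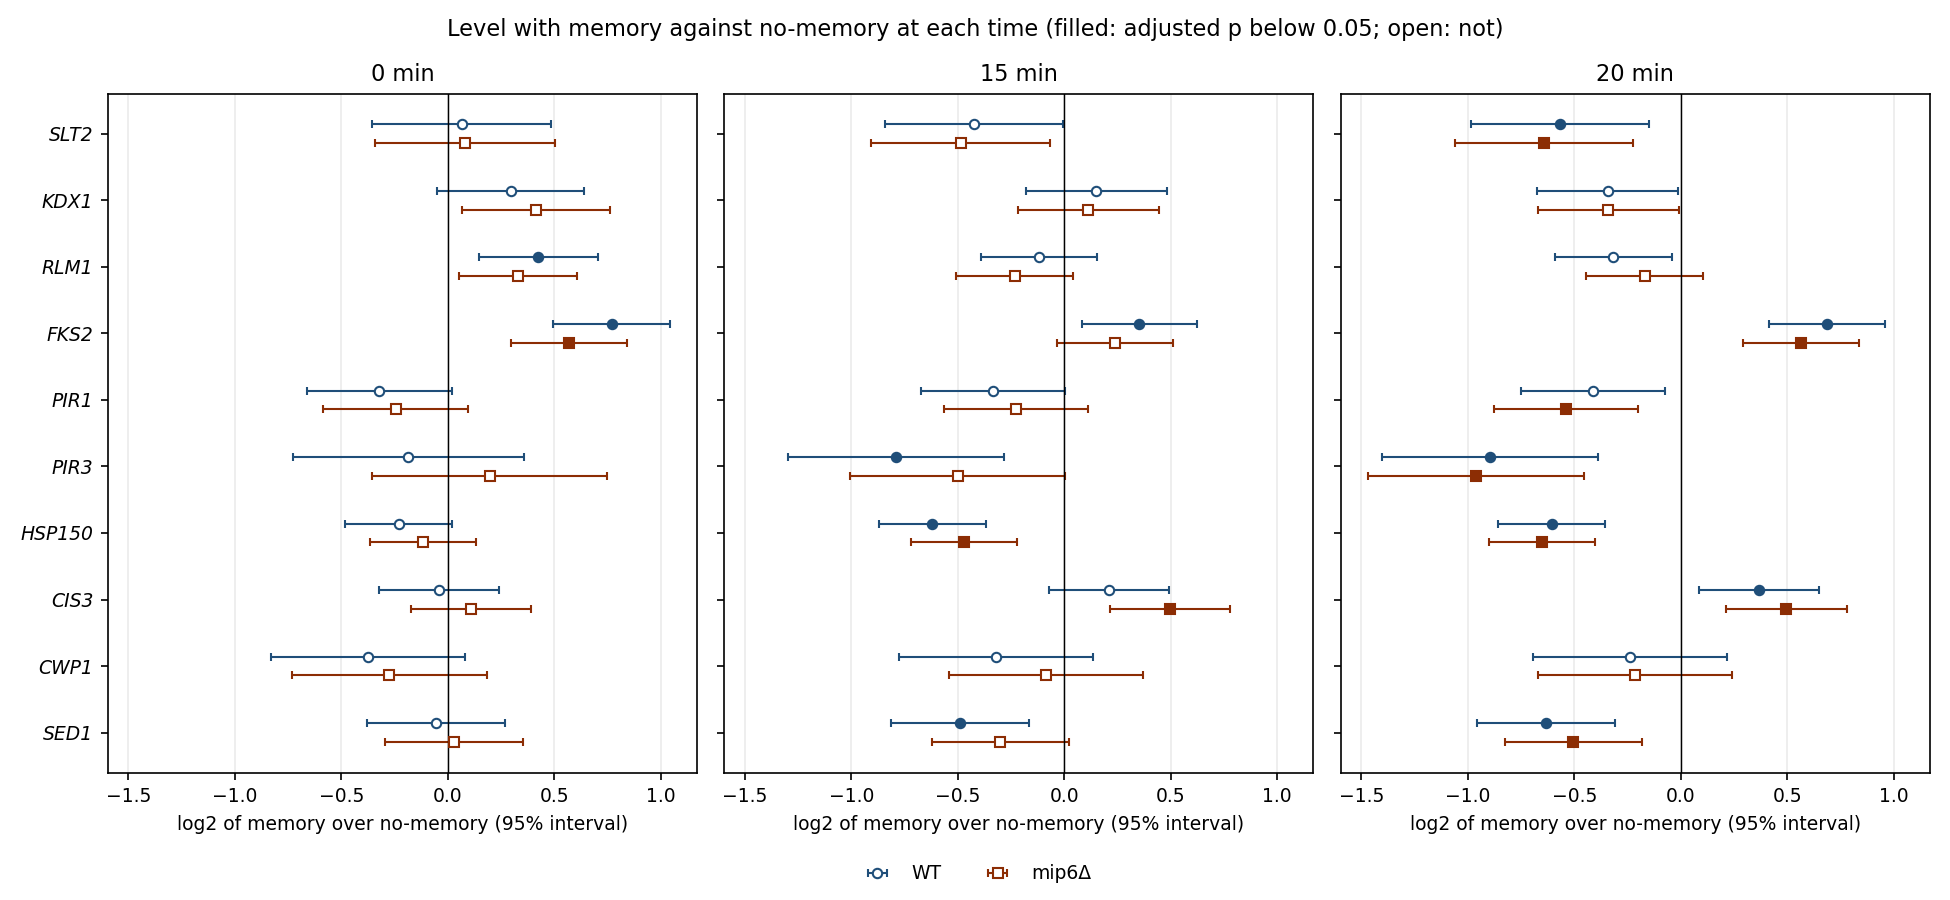
Log2 ratio of memory to no-memory cells for each gene at 0, 15 and 20 min (panels) in WT (blue circles) and *mip6Δ* (brown squares), with 95% intervals; filled symbols have an adjusted p below 0.05. *FKS2* is right of 0 at all times. At 15 and 20 min *CIS3* lies right of 0 in both strains, and *SLT2*, *RLM1*, *PIR1*, *PIR3*, *HSP150*, *CWP1* and *SED1* lie left of 0. At 0 min *PIR1*, *HSP150* and *CWP1* are left of 0 in both strains as well.

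Whether memory changed the response itself, and not only the level, was asked through the difference between the heat responses of memory and no-memory cells. Averaged over both strains and both times, 6 of the 10 genes had a smaller rise with memory and *CIS3* a smaller fall. The differences in log2 fold change were −0.79 ± 0.24 for *PIR3* (adjusted p = 0.00952), −0.60 ± 0.19 for *SLT2* (adjusted p = 0.0119), −0.59 ± 0.12 for *RLM1* (adjusted p = 0.000511), −0.47 ± 0.14 for *SED1* (adjusted p = 0.0112), −0.46 ± 0.15 for *KDX1* (adjusted p = 0.0176), −0.41 ± 0.11 for *HSP150* (adjusted p = 0.00441) and 0.36 ± 0.12 for *CIS3* (adjusted p = 0.0249). The 3 signalling genes among the members, *SLT2*, *KDX1* and *RLM1*, were thus among the 6. At 0 min the log2 level with memory against no-memory was 0.42 in WT and 0.33 in *mip6Δ* for *RLM1*, and 0.30 and 0.41 for *KDX1*. In heated cells it ran from −0.32 to −0.12 for *RLM1*. For *KDX1* it was 0.15 and 0.11 at 15 min and −0.34 in both strains at 20 min. Without a block, edgeR with TMM factors called neither lower in heated memory cells, so their smaller rises include a higher start. In the mean difference *FKS2* (−0.21 ± 0.12), *PIR1* (−0.10 ± 0.15) and *CWP1* (0.11 ± 0.20) did not pass, with 95% intervals of −0.44 to 0.03, −0.39 to 0.20 and −0.28 to 0.51. Of all genes tested, 15.3% had a negative and 21.7% a positive difference (925 and 1313 genes, or 1401 and 990 with upper-quartile scaling, under which *CIS3* at 0.28 was no longer called and *FKS2* was). Those shares pool genes that rose, fell or did not change with heat, and the shares among genes that rose were not computed. The paper reports that memory mostly dampened the changes of heat-induced and heat-repressed genes. Leaving out replicate 3 left 0 of the 10 genes past the threshold and leaving out replicate 2 left 4, *RLM1*, *KDX1*, *HSP150* and *SED1*, with the directions of the 7 genes called kept. Without replicate 3 the differences were −0.73 for *PIR3*, −0.61 for *SLT2* and −0.47 for *RLM1*.

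**Figure D5:**
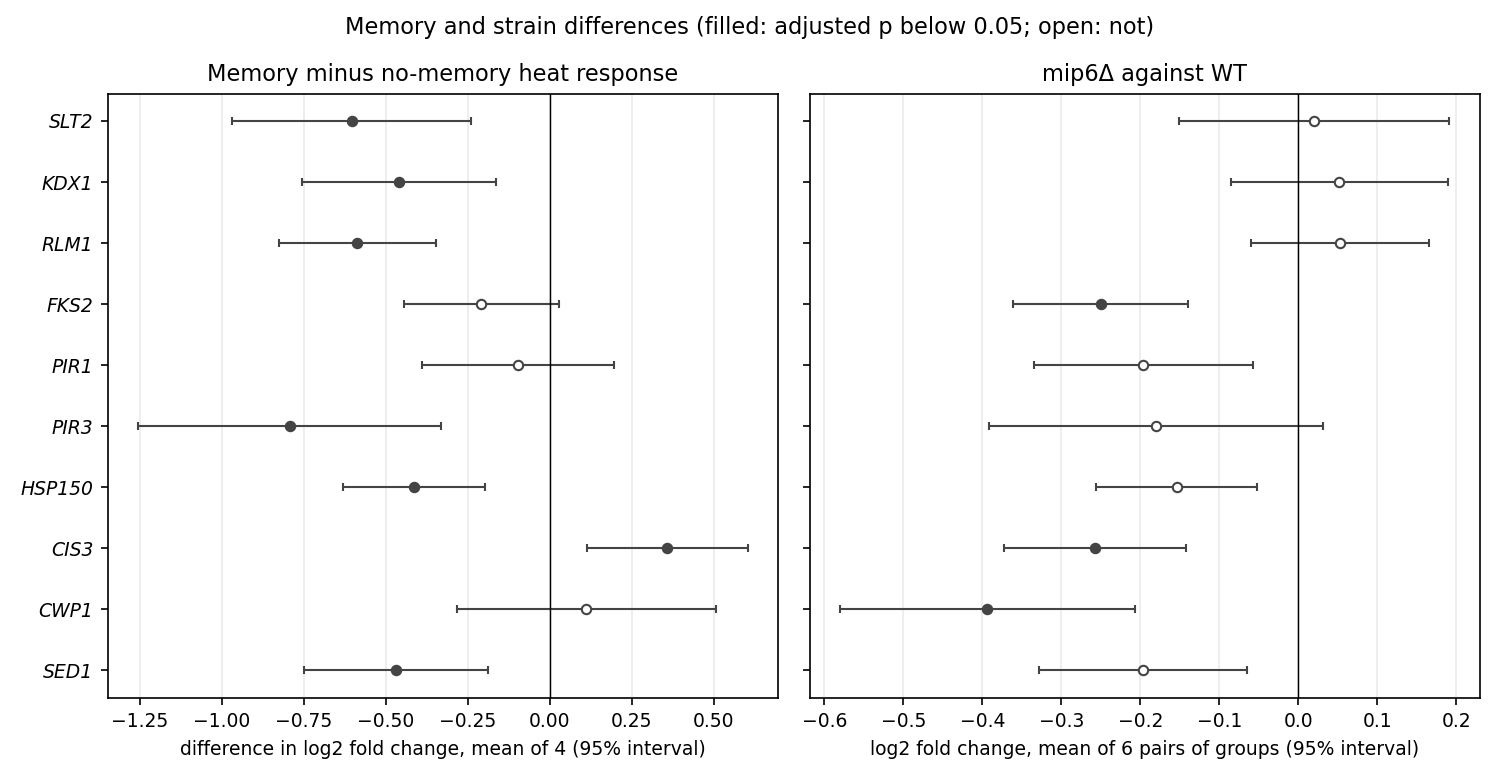
Left, difference in log2 heat response between memory and no-memory cells, the mean over both strains and both times; right, log2 fold change of *mip6Δ* against WT, the mean over the 6 combinations of memory and time; bars are 95% intervals and filled symbols have an adjusted p below 0.05. Of the filled symbols on the left, 6 lie below 0 and that of *CIS3* above it. The filled symbols on the right are *FKS2*, *CIS3* and *CWP1*, all below 0.

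Taken by strain and time, few of these differences passed. In WT there were 0 of the 10 genes at 15 min (10.9% of all genes) and 1 at 20 min, *RLM1* (−0.74 ± 0.20, adjusted p = 0.0172, with 9.89% of all genes). In *mip6Δ* there were 0 at 15 min (9.94%) and 3 at 20 min (13.4%), namely *PIR3* (−1.16 ± 0.38, adjusted p = 0.0419), *KDX1* (−0.75 ± 0.24, adjusted p = 0.0383) and *HSP150* (−0.54 ± 0.18, adjusted p = 0.0469). At an unadjusted p under 0.05 the 4 counts were 3, 5, 1 and 6 of 10, where 27.4%, 26.4%, 25.3% and 28.7% of all genes reached that level, so at 15 min the members were near or below the background. At 15 min DESeq2 called 0 in both strains, and limma on the normalised counts 2 in each. With the replicate block the counts were 2, 4, 2 and 6, with *SLT2* in all 4 (adjusted p from 0.00434 to 0.0443) and *RLM1* in all 4. Without replicate 1 they were 2, 3, 3 and 4, without replicate 2 or without replicate 3 they were 0 in each of the 4, and without the sample with 2 time labels *HSP150* was the gene left at 20 min in *mip6Δ*.

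*MIP6* encodes an RNA-binding protein. In none of the 6 direct comparisons of *mip6Δ* with WT did edgeR call any of the 10 genes, while 3 were lower in *mip6Δ* in the mean over the 6. The shares of all genes called were 0.0166% in each of the 3 no-memory comparisons and 0.0331% in each of the 3 memory comparisons. At an unadjusted p under 0.05, 1, 2 and 2 of the 10 genes were found at 0, 15 and 20 min without memory, and 1, 1 and 3 with memory. Of all genes, 6.16%, 3.3% and 6.58% reached that level without memory and 5.13%, 1.01% and 2.93% with memory. DESeq2 called 0 in each, and limma on the normalised counts called 1 at 0 min without memory with a pseudocount of 1 and 0 elsewhere. The largest of the 6 differences was that of *CWP1* at 0 min without memory, where *mip6Δ* had 178, 185 and 278 CPM against 394, 247 and 469 in WT (log2 −0.79 ± 0.23, adjusted p = 0.465), and the groups overlapped. As a mean over the 6 combinations, *CWP1* (log2 −0.39 ± 0.10, adjusted p = 0.0309), *CIS3* (−0.26 ± 0.06, adjusted p = 0.0229) and *FKS2* (−0.25 ± 0.06, adjusted p = 0.0215) were lower in *mip6Δ*, so 3 of 10 genes were lower where 0.812% of all genes were, and 0 were higher where 0.348% were. This test takes samples of a strain that share a replicate number as independent, although such samples deviated together in part. Its SE and adjusted p may therefore be too small. *CIS3* and *CWP1* were lower in the means of all 6 combinations, and *FKS2* in 5, with log2 0.10 at 0 min without memory. *SLT2* (0.02, 95% interval −0.15 to 0.19), *KDX1* (0.05, −0.09 to 0.19) and *RLM1* (0.05, −0.06 to 0.17) did not pass. Leaving out replicate 3 left 0 of the 10 genes, leaving out replicate 1 left 1 (*PIR3*, which was not among the 3) and leaving out replicate 2 left 2. By library totals 1 was left, *CWP1*, and the split of all genes turned from 21 higher and 49 lower to 53 and 27. With the replicate block 6 were called, *PIR1*, *HSP150* and *SED1* being added. The heat response differed between the strains for 0 of the 10 genes and 0% of all genes without and with memory, and the memory effect for 0 and 0%. At an unadjusted p under 0.05 there was 1 of the 10, *FKS2* without memory, then 0 and 0, against 4.34%, 4.94% and 0.696% of all genes, and DESeq2 and limma called 0 of the 10.

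Other genes of the pathway did not rise as a body. Of 15 further signalling genes, 6 rose and 5 fell in WT no-memory cells at 15 min, close to the 35.9% and 36% of all genes that did, with a median log2 change of 0.12 against 0.01 over all genes. The Mid2-like sensor *MTL1* rose 5.61-fold (log2 2.49 ± 0.17), the Rho1 exchange factor *ROM1* 3.09-fold (1.63 ± 0.19) and the exchange factor *TUS1* 1.43-fold, while the sensors *WSC3* and *WSC2* were 1.85-fold and 1.48-fold lower and the kinase gene *MKK2* 1.36-fold lower. Of 8 negative regulators, 3 rose and 4 fell. *BAG7*, a GTPase-activating protein for Rho1, rose 16.0-fold, and *SDP1* and *PTP2*, phosphatases that act on Slt2, rose 3.93-fold and 3.64-fold. *PTP3*, *LRG1* and *BEM2* fell, with log2 −0.96, −0.67 and −0.38. Like *SLT2*, *MTL1* (−1.13 ± 0.14), *ROM1* (−0.77 ± 0.17), *BAG7* (−1.02 ± 0.31) and *PTP2* (−0.62 ± 0.12) had a smaller rise with memory in the mean over strains and times. In that mean, 5 of the 15 signalling genes were lower and 1 higher, and 3 of the 8 negative regulators lower and 1 higher, against 15.3% of all genes lower and 21.7% higher.

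Of 12 further genes known as Rlm1 output, 8 rose and 2 fell in WT no-memory cells at 15 min, with a median of 0.53 (35.9% of all genes rose and 36% fell, as for the lists that follow). *PST1* rose 6.41-fold (log2 2.68 ± 0.26), *PRM5* 3.09-fold (1.63 ± 0.14) and *NCW2* 3.04-fold (1.60 ± 0.25), while *CHS3*, a chitin synthase, and *FKS1* fell. In the mean memory effect, *PST1* (0.00), *PRM5* (0.20) and *NCW2* (−0.23) did not pass, and 1 of the 12 genes did, *CHS3*, which was higher. Of 30 genes of glucan and chitin metabolism 9 rose and 14 fell, the extremes being *GAS4* (log2 1.55 ± 0.23) and the glucanase-family gene *SCW10* (−3.21 ± 0.38). Of 29 further wall protein genes 9 rose and 16 fell, with a median of −0.64. *SPI1*, a relative of *SED1*, rose 10.4-fold (log2 3.38 ± 0.39), *YGP1* 6.02-fold and *FIT2* 4.88-fold, whereas *TOS6* (−4.26 ± 0.36), *TIR3* (−2.54 ± 0.21) and *MKC7* (−2.28 ± 0.14) fell. *HSP150*, *PIR3*, *PIR1*, *CWP1* and *SED1* rose beside these wall protein genes, of which more fell than rose.

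Over the 12 group means, most of the 10 genes followed closely related courses. The correlation of log2 levels was 0.994 between *SLT2* and *PIR3*, 0.984 between *SLT2* and *RLM1*, 0.990 between *KDX1* and *RLM1* and 0.991 between *HSP150* and *SED1*. *CIS3* ran opposite to *SLT2* (−0.954), and *FKS2* was close to none, from −0.06 with *PIR1* to 0.35 with *RLM1*. These are descriptions over 12 points that share the time course. Outside the lists, the gene closest to both *SLT2* (0.997) and *PIR3* (0.995) was *HSP31*, that closest to *RLM1* was *GPR1* (0.997), to *KDX1* *PYC1* (0.992), to *SED1* *GRE1* (0.989), to *HSP150* *MCT1* (0.991), to *CWP1* *ISA2* (0.991), to *CIS3* *ADH4* (0.987) and to *PIR1* *OYE2* (0.977). *FKS2* had the weakest best match, *UCC1* (0.917).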

How the data were processed

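Poly(A)-selected, strand-specific libraries (TruSeq Stranded mRNA) of 36 samples were sequenced. Per the labels, the authors' pipeline was Trimmomatic, HISAT2 with sacCer3, and StringTie, and they deposited whole-number read counts of 6403 genes (versions are not given in the sources used here). The authors also deposited a normalised signal for 6172 genes, made from the counts by a low count filter, TMM scaling and removal of hidden batch effects with ARSyN; that signal served only as an alternative. Total counts were 28270651 to 42233578 per sample, and the 3 replicates of a group limit the precision more than the counts do.

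From the counts, edgeR 4.0.16 (R 4.3.3) was run with TMM factors, filterByExpr (minimum count 10) and quasi-likelihood tests over 12 groups (24 residual degrees of freedom), with Benjamini-Hochberg adjustment over the 6038 genes tested and a threshold of 0.05. "Rose", "higher", "fell" and "lower" in a count refer to that threshold. Counts per 1000000 reads (CPM) are TMM-scaled, except those of the a-cell and alpha-cell genes, which are scaled by the total counts alone. The steps were tested on simulated data. The memory effect is the memory minus the no-memory heat response; means are over 4 such differences, or over 6 comparisons of strains. The members and gene lists were chosen with earlier results of these data known. From each list, up to 3 genes in each direction with the largest change in WT no-memory cells at 15 min were named, and for each member the unlisted gene of at least 10 CPM with the highest correlation. Alternatives were other scalings, no filter, DESeq2 1.42.0, limma 3.58.1 on log2 of the normalised signal plus 1 or 10, a replicate block, and samples left out. Coding sequences were compared with blastn 2.17.0.

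Samples with the same replicate number deviated together in part: the correlation of their deviations from the group means averaged 0.193. For different numbers the mean was −0.0956, which largely follows from taking deviations from means of 3 samples and is no separate reference. All 3 same-number correlations were over 0.1 in 26 of 66 pairs of groups, among them memory and no-memory cells at each time except 15 min in *mip6Δ*. The labels say that a culture was split into a memory and a no-memory flask. Blocked values are therefore given beside the memory comparisons that they change. Samples of 1 strain and condition at different times also deviated together, with 0.70, 0.25 and 0.65 for *mip6Δ* no-memory cells at 15 and 20 min. The tests without a block take all samples as independent, also in the means over several groups.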

Additional observations from a re-analysis of the deposited data

Results flagged for a closer look

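For 7 of the 10 genes the heat response differed between memory and no-memory cells in a test of that difference, averaged over both strains and both times, where 15.3% of all genes had a negative and 21.7% a positive difference. Those shares are not limited to genes that rose with heat, as most of the 10 did. The differences in log2 fold change were −0.60 for *SLT2*, −0.59 for *RLM1*, −0.46 for *KDX1*, −0.79 for *PIR3*, −0.41 for *HSP150*, −0.47 for *SED1* and 0.36 for *CIS3*. The 7 genes are *SLT2*, *KDX1* and *RLM1*, 3 of the 4 PIR genes among the members and 1 gene of a GPI-anchored protein. None of these calls held without replicate 3. The differences for *RLM1* and *KDX1* include a higher mean level with memory at 0 min. *FKS2* did not pass (−0.21, 95% interval −0.44 to 0.03), and none of the 10 genes passed the test of a difference between WT and *mip6Δ* in heat response or memory effect.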

How the results depend on the processing

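Over the 12 alternatives the 10 genes gave 3960 values, of which 3770 kept their side of the threshold. A further 82 lost and 108 gained an adjusted p below 0.05, and 0 called values changed direction. Within the 3770, 96 values that were not called had another sign. The numbers of genes called in the 8 heat comparisons stayed within 1.5 times. The other numbers of genes called, of 10, moved as follows. With the replicate block they were 2 in WT at 15 min and 4 at 20 min for the memory effect (0 and 1 without it), 2 and 6 in *mip6Δ* (0 and 3), 3 for the memory level in *mip6Δ* at 0 min (1) and 6 for the mean strain difference (3). Limma with either pseudocount gave the same 2, 4, 2, 6, 3 and 6, and with a pseudocount of 1 also 1 for the strains at 0 min without memory (0). The authors had removed hidden batch effects from the signal that limma used, so its counts are no separate support for the blocked ones. Upper-quartile scaling gave 1, 1 and 5 for the memory effect in WT at 15 min and in *mip6Δ* at 15 and 20 min. Library totals gave 3 and 4 for the memory level in *mip6Δ* at 0 and 20 min (1 and 7) and 1 for the mean strain difference. RLE factors and no filter each gave 1 for the memory level in WT at 0 min (2), and without the sample with 2 time labels the memory effect in *mip6Δ* at 20 min gave 1. Leaving out each replicate gave 0 to 2 and 0 to 3 for the memory effect in WT at 15 and 20 min, 0 to 3 and 0 to 4 in *mip6Δ*, 0 to 6 for its mean, 0 to 2, 1 to 4 and 1 to 8 for the memory level in WT at 0, 15 and 20 min, 0 to 3, 1 to 5 and 2 to 7 in *mip6Δ*, and 0 to 2 for the mean strain difference. Fewer samples enter those fits; the other causes were not tested.

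Over all genes, the mean memory effect was called for 2238, and for 1162 to 3025 under the alternatives. For the memory level the numbers were 927 (99 to 1885), 2504 (1494 to 3198) and 2676 (1544 to 3328) in WT at 0, 15 and 20 min and 928 (211 to 1702), 2368 (1375 to 3005) and 2736 (1806 to 3368) in *mip6Δ*. For the memory effect they were 656 (171 to 1509) and 597 (130 to 1352) in WT at 15 and 20 min and 600 (183 to 1392) and 810 (250 to 1635) in *mip6Δ*. Between 15 and 20 min they were 82 (0 to 629), 8 (0 to 187), 12 (0 to 118) and 11 (0 to 192). For the mean strain difference they were 70 (18 to 566), and for each of the 6 direct strain comparisons 1 or 2, with at most 24 under DESeq2. Library totals moved the median of all genes by 0.11 to 0.25 on the log2 scale in 12 comparisons and upper-quartile scaling by −0.12 to 0.19 in 5. All counts rest on 3 replicates a group, and intervals cover the spread of these samples only.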
